A study of Mus musculus with 12 samples.

Results

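The miR-290 and miR-302 clusters are the 2 microRNA loci that mouse embryonic stem cells are best known for, and SOX2 binding around them is described here from the called regions of a chromatin immunoprecipitation study (ChIP-seq). The 8 member genes are Mir290a, Mir291a and Mir295 of the miR-290 cluster on chromosome 7 and Mir302a, Mir302b, Mir302c, Mir302d and Mir367 of the miR-302 cluster on chromosome 3, out of 1228 microRNA genes in the annotation. The members were chosen by name with the number of SOX2 regions near them already known, so their counts and positions are a description and carry no test. Regions were taken where the midpoint lay within 50 kb of a microRNA gene of either cluster. That rule gave 0 of 84 mitotic regions and 8 of 10351 asynchronous regions. Of the 8 regions, 6 lay near the miR-290 cluster and 2 near the miR-302 cluster. All 8 member genes had an asynchronous region within 50 kb and 0 had a mitotic one, while over all microRNA genes the share was 42.6% in the asynchronous list and 0.489% in the mitotic list.

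The study used E14, a line of mouse embryonic stem cells, in 4 groups of 3 biological replicates, 12 libraries in all. These were SOX2 ChIP and input DNA of mitotic cells, which were held overnight in nocodazole, then fixed, stained and sorted for the mitotic histone mark H3S10p, and SOX2 ChIP and input DNA of asynchronous cells, with no such treatment in the labels. The antibody was Sox2 Y-17. The growth medium of all groups contained leukemia inhibitory factor and 10% serum, with 0.8 μM PD184352, which blocks MEK, and 3 μM CHIR99021, which blocks GSK3. The 3 replicates of a condition share a single list of regions with positions and no score, so no value given here has a replicate error, and neither depth nor enrichment is known. Coordinates are on mm10.

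SOX2 is a transcription factor that keeps stem cells pluripotent, mostly by binding enhancers together with OCT4. A microRNA is cut from a hairpin in a longer transcript and guides Argonaute proteins to messenger RNAs that pair with its seed, the bases near its 5′ end. In mouse embryonic stem cells the miR-290 cluster is the most abundant source of such molecules, and the miR-302 cluster becomes prominent as cells leave the naive state. Both make microRNAs that shorten the G1 phase by repressing inhibitors of the cell cycle, and the core pluripotency factors are known to occupy both loci.

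The 2 clusters lie on different chromosomes but share a seed, which is why their sequences are shown together. In the lines that follow, each mature microRNA is written 5′ to 3′ from RefSeq (GRCm38.p6, the assembly that mm10 names), with bases 2 to 8, the seed, in capitals. No 3′ arm of miR-302a or of miR-292a was in the table used, so whether these arms share a seed with the others is not stated here. The first 5 share the seed AAGUGCU, which no microRNA gene outside the 2 clusters had in that table.
miR-291a-3p: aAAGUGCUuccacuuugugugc
miR-294-3p: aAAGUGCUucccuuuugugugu
miR-295-3p: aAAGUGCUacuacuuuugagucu
miR-302b-3p: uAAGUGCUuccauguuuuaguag
miR-302d-3p: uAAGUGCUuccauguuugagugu
miR-302c-3p: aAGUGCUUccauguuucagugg
miR-290a-3p: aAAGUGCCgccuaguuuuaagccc
miR-291b-3p: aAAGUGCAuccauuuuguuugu
miR-293-3p: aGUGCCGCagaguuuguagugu
miR-367-3p: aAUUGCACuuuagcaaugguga

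The seeds of the other 3′ arms shown are AGUGCUU in miR-302c-3p, AAGUGCC in miR-290a-3p, AAGUGCA in miR-291b-3p, GUGCCGC in miR-293-3p and AUUGCAC in miR-367-3p. The letters AAGUGC stood within the first 9 bases of 9 of the 26 mature sequences that the table held for the clusters. Over all 1738 mature sequences in it, 19 (1.09%) had them. The 5′ arms have seeds of their own, shown here because they group by cluster. miR-290a-5p, miR-292a-5p and miR-293-5p share the seed CUCAAAC, and the 5′ arms of miR-302b, miR-302c and miR-302d share CUUUAAC.
miR-290a-5p: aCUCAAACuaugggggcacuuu
miR-292a-5p: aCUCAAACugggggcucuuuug
miR-293-5p: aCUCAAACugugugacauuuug
miR-302a-5p: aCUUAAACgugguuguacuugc
miR-302b-5p: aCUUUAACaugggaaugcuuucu
miR-302c-5p: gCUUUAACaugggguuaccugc
miR-302d-5p: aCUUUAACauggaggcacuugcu

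Asynchronous cells had an array of 6 SOX2 regions before the miR-290 cluster and none after it. The cluster holds 9 annotated microRNA genes in 2216 bp, at chromosome 7, 3218626 to 3220841. Mir290a, Mir291a, Mir292, Mir291b, Mir293, Mir294 and Mir295 lie in that order on the plus strand, and Mir290b and Mir292b are read from the opposite strand of the Mir290a and Mir292 hairpins. The region farthest from the cluster, at 3193100 to 3193590, was 491 bp wide, with its midpoint 25.3 kb before the first base of Mir290a. The next, at 3201143 to 3201639, was 497 bp wide and 17.2 kb away, and another, at 3206452 to 3206974, was 523 bp wide and 11.9 kb away. These 3 distal regions were alike in width and stood at percentiles 90.4, 90.9 and 93.1 of the widths in the asynchronous list.

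The 3 regions nearer to the microRNAs were narrower. They lay at 3212157 to 3212404 (248 bp, 6.35 kb before Mir290a), 3213532 to 3213923 (392 bp, 4.90 kb before it) and 3217507 to 3217784 (278 bp, 0.981 kb before it). Their width percentiles were 34.7, 77.1 and 45.99. The last of these regions ended 841 bases before the Mir290a hairpin, and no region overlapped a microRNA of the cluster. Midpoints of neighbouring regions were 1.45 to 8.05 kb apart, with a median spacing of 5.32 kb, and the 6 regions covered 2429 bp of a 24.7 kb stretch.

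**Figure D1:**
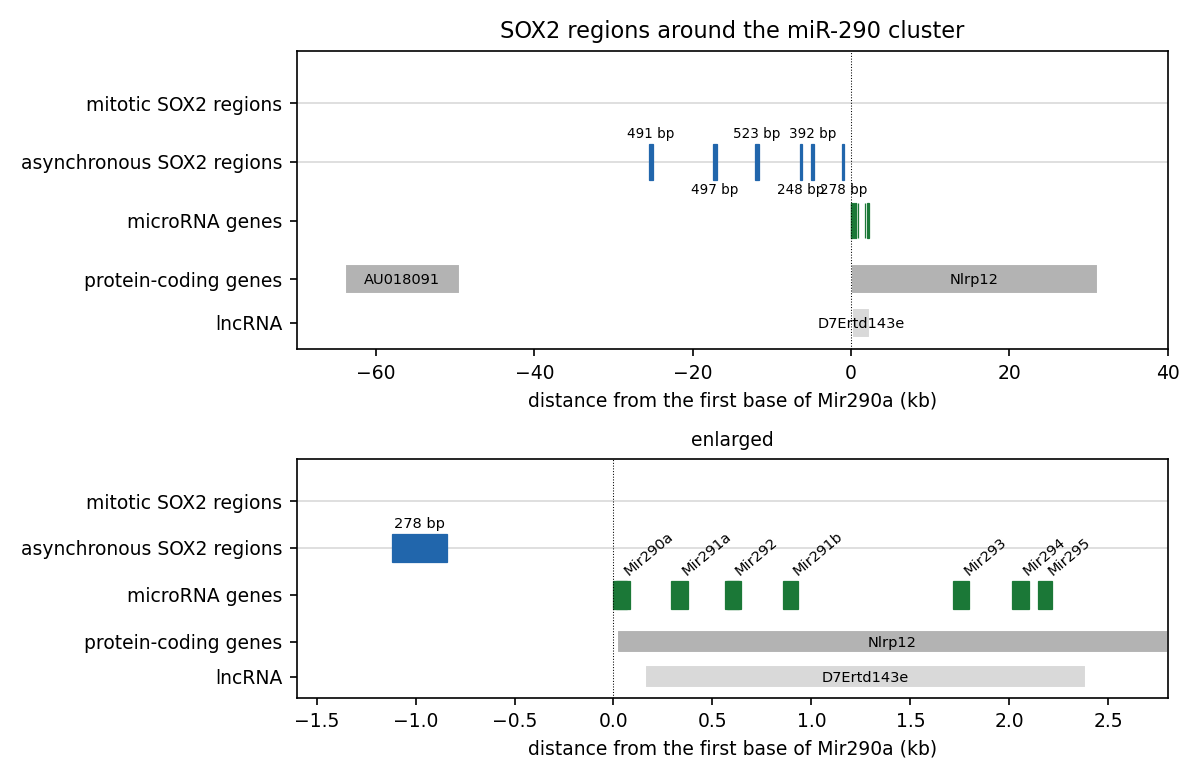
Map of the miR-290 locus, with distance from the first base of Mir290a in kb on the x axis and, from the top, mitotic SOX2 regions, asynchronous SOX2 regions, microRNA genes, protein-coding genes and the long noncoding RNA D7Ertd143e; the lower panel enlarges the cluster, where Mir290b and Mir292b lie under Mir290a and Mir292 and are not labelled. The mitotic row is empty, and the 6 asynchronous regions, labelled with their widths, all stand to the left of Mir290a, from 25.3 to 0.981 kb away.

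The array lay in a gap between protein-coding genes, in the part of it next to Nlrp12. None of the 6 midpoints lay inside an annotated gene of any kind. Towards lower coordinates the gap ends at AU018091 (chromosome 7, 3154658 to 3169203), which was 24.1 kb from the nearest region, and towards higher ones at Nlrp12 (3218643 to 3249771), an innate immune receptor gene whose span on the minus strand covers all but the first bases of the microRNA cluster. By distance alone, AU018091 was the nearest coding gene of the farthest region and Nlrp12 that of the other 5. Exons were not annotated in the table used, so it is not stated here whether the microRNAs lie in an intron of Nlrp12. The gap is 49.4 kb long. Of 5176 gaps of 25 to 100 kb between protein-coding genes, 1047 (20.2%) held a region, the median number was 0, and 4 held 6 or more, with a highest number of 7. That is 1.21 regions per 10 kb in the miR-290 gap and 0.0525 per 10 kb over all gaps of this length. The gap was picked because the array lies in it, and the comparison was set up after the array had been seen. The difference is therefore a description and carries no test.

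No other stretch of the genome had 6 asynchronous regions as close together in the list. The midpoints of the array spanned 24.3 kb. The 10249 runs of 6 consecutive regions on a chromosome had a median span of 866 kb, and the next shortest run, whose ends had Myo10 as their nearest coding gene, spanned 33.4 kb. When regions were chained wherever neighbouring midpoints were at most 10 kb apart, the miR-290 array was the longest of 9364 chains, with 6 regions. Of the others, 2 chains had 5 regions, 19 had 4 and 8519 were single regions. The length of 10 kb and the comparison of runs were chosen after the array had been seen. With links of 5 kb the array split and its longest piece had 3 regions, with 7 chains in the list longer than that. With links of 15 and 20 kb it stayed at 6, with 1 and 2 longer chains.

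The cluster's noncoding transcript, D7Ertd143e, is annotated on the plus strand from 3218784 to 3221015, over the microRNAs from Mir291a to Mir295. The 300 bases around its start, chr7:3218534-3218833 (plus strand, 250 bases before the start and 50 from it, RefSeq, GRCm38.p6), are printed because they hold the first microRNA of the cluster, which ends before the annotated start of the transcript. Capitals mark the 2 arms of miR-290a.
D7Ertd143e start: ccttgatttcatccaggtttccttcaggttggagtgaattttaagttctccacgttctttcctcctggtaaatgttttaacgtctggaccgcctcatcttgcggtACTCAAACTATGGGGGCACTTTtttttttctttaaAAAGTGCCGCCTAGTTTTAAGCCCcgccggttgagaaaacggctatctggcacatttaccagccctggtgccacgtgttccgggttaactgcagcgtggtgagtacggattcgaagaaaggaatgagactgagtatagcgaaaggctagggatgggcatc
This window overlapped no SOX2 region. It held none of the 3 motifs described for Gm51018, which says only that these letters are not in it.

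The miR-302 cluster had 2 asynchronous regions, the nearer one directly before its first hairpin. The cluster holds 5 microRNA genes in 580 bp on the plus strand, at chromosome 3, 127545228 to 127545807, in the order Mir302b, Mir302c, Mir302a, Mir302d and Mir367. It lies inside Larp7 (127536714 to 127553349), which is read from the minus strand and encodes a protein that stabilises the 7SK RNA. The nearer region, at 127544598 to 127545102, was 505 bp wide (percentile 91.6) with its midpoint 0.378 kb before Mir302b. It ended 125 bases before the Mir302b hairpin and lay inside Larp7. The other region, at 127530224 to 127530614, was 391 bp wide (percentile 76.9) and 14.8 kb before Mir302b, outside any annotated gene and 6.30 kb from the end of Larp7. The 2 midpoints were 14.4 kb apart, closer than the median of 114 kb for neighbouring regions in the list, where 12.5% of neighbours were as close or closer.

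**Figure D2:**
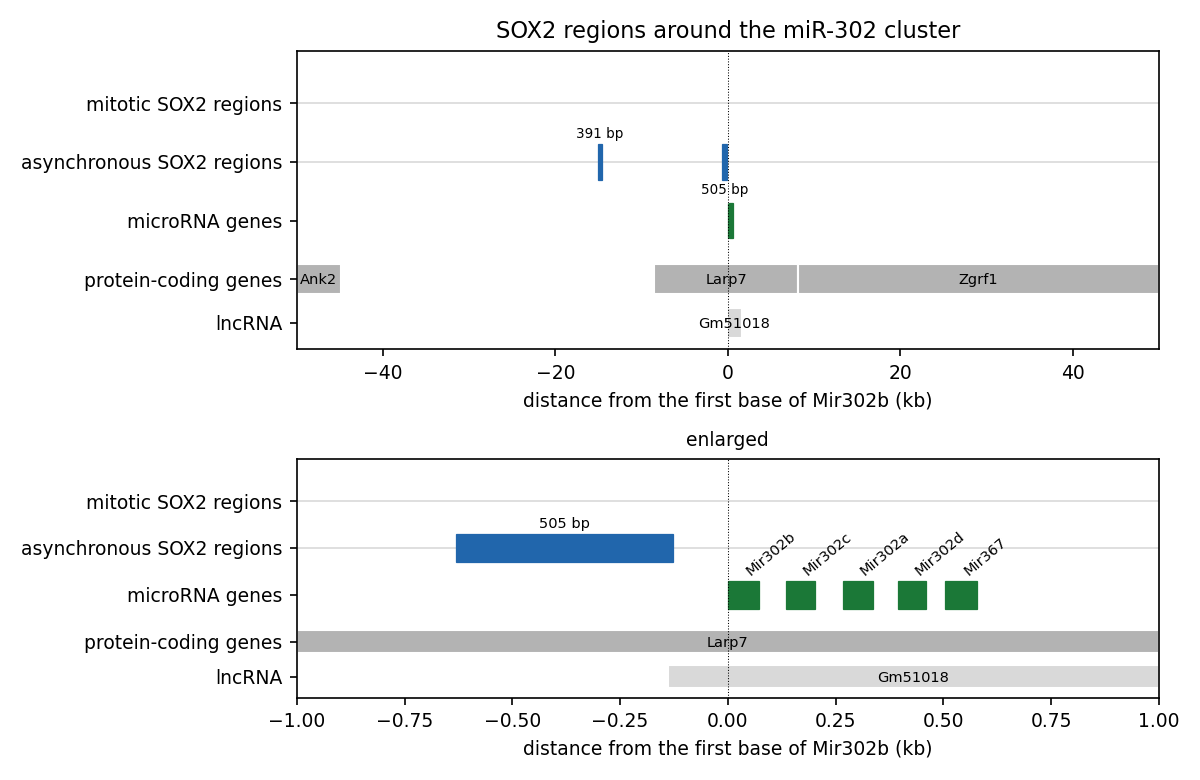
Map of the miR-302 locus, with distance from the first base of Mir302b in kb on the x axis and the same rows as in the map of the miR-290 locus; the lower panel enlarges the cluster. The mitotic row is empty, and the 505 bp asynchronous region ends just before Mir302b and reaches over the start of the noncoding transcript Gm51018.

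The nearer region covered the start of the transcript that holds the miR-302 hairpins. The annotation places a noncoding RNA, Gm51018, on the plus strand at 127545089 to 127546903, over all 5 microRNA genes. Of the 300 bases around its start, chr3:127544839-127545138 (plus strand, RefSeq, GRCm38.p6), 264 (88%) lay inside the SOX2 region. The sequence is printed because it is the one stretch of a SOX2 region at these loci for which bases were at hand. Capitals mark the SOX core letters.
Gm51018 start: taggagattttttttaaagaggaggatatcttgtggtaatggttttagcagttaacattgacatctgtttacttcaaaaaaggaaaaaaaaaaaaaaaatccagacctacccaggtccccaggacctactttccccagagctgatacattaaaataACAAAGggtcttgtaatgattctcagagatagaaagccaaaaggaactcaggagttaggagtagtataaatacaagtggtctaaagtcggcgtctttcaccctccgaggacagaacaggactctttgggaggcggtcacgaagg
The motifs searched, on both strands, were 3: ACAAAG and ACAATG, core letters of SOX sites, and the octamer ATGCAAAT, which OCT4 binds. None contains another. ACAAAG occurred in 1 place, at bases 157 to 162 of the window (127544995 to 127545000), inside the region, 94 bases before the start of Gm51018 and 145 bases past the region's midpoint. The other 2 motifs were not in the window, which says nothing of binding by either factor. ACAAAG is common: 18.7% of the 32851 gene starts in the table had it, and it was in 34.4% of the 512 starts overlapped by an asynchronous region and 18.5% of the rest. For ACAATG these shares were 26.8% of overlapped starts and 12.3% of the rest, and for the octamer 4.88% and 1.69%.

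Few gene starts lay under a SOX2 region at all. An overlap of at least 1 base was found for 1.56% of the gene starts, and 90 starts were covered over as many bases as that of Gm51018 or more. The starts of Larp7 and of Zgrf1, a helicase gene on its other side (127553396 to 127618023), were not overlapped and held none of the 3 motifs, nor did that of Nlrp12. Ank2, which encodes an ankyrin and begins 44.9 kb away, and Zgrf1 were the other coding genes within 50 kb of the cluster. Ank2 had 8 asynchronous regions within 50 kb of its long span, and 1 of its annotated starts was overlapped, over 259 bases. That overlapped start held none of the 3 motifs. Of the Ank2 starts with no overlap, 1 held ACAAAG and another held ACAATG. Neurog2, a proneural factor, lay 86.9 kb away and had no asynchronous region within 50 kb.

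Distances were smallest for the first microRNA of each cluster and grew along it. In the miR-290 cluster, Mir290a lay 0.981 kb from the nearest asynchronous midpoint, Mir291a 1.27 kb and Mir295 3.13 kb, and each had 3 regions within 10 kb and 6 within 50 kb. Mir292, Mir291b, Mir293 and Mir294 lay in between, at 1.54, 1.84, 2.70 and 3.00 kb. In the miR-302 cluster, Mir302b was 0.378 kb away, Mir302c 0.513 kb, Mir302a 0.646 kb, Mir302d 0.774 kb and Mir367 0.883 kb. Each of these 5 genes had 1 region within 10 kb and 2 within 50 kb. The genes of a cluster share their regions, so the 14 genes stand for 2 loci and not for 14 observations.

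No region lay close to the edge of the 50 kb window, though narrower windows gave fewer regions. At miR-290 there were 5 within 25 kb and 3 within 10 kb, and at miR-302 there was 1 within 10 kb. At miR-290 the farthest region inside 50 kb was 25.3 kb away, and the next regions outside were 107 kb before the cluster (3111543 to 3111799) and 127 kb after it (3347859 to 3348353). At miR-302 the farthest inside was 14.8 kb away, and the next outside were 81.3 kb before (127463811 to 127464037) and 490 kb after the cluster (128036167 to 128036408). Peak numbers in the asynchronous list run along each chromosome up to 15590, and 5239 of them are not in the list used here. The 6 regions at miR-290 carry 6 numbers in a row, with 1 missing number before the first. At miR-302, the region next to Mir302b has a number with a letter, 9649a, and no other entry of that number is listed. That holds for 144 of 315 lettered numbers. After that region 3 numbers are missing, somewhere before the next listed region. Whether any of these lay within 50 kb is not known, so the counts of 6 and 2 and the upstream side of all regions hold for the list used here.

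Mitotic cells had no SOX2 region near either cluster. The count was 0 within 50 kb of the 14 microRNA genes in mitotic cells, against 8 in asynchronous cells. The nearest mitotic regions were 41502.7 kb from the miR-290 cluster (chromosome 7, 44723458 to 44723576) and 10653.6 kb from the miR-302 cluster (chromosome 3, 116891534 to 116891638). Of 84 mitotic regions, a count of 0 allows a share of up to 3.57%, for counting error only. Across the annotation, 6 of 1228 microRNA genes (0.489%) had a mitotic region within 50 kb, so with a list this short an absence at 2 loci is near the background and is no result about them. The mitotic list carries a q-value tag of 0.05 and the asynchronous list one of 0.01.

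Among all microRNA loci, miR-290 stood near the top of the counts and miR-302 did not. When microRNA genes less than 10 kb apart were joined, the 1228 genes fell into 943 clusters, of which 100 held 2 or more genes. An asynchronous region lay within 50 kb of 42.6% of microRNA genes, of 43.6% of the clusters and of 45.5% of protein-coding genes, so having at least 1 region, as all 8 members do, is common. Of the clusters, 15.1% had 2 or more regions, as miR-302 does with 2, and 0.318%, or 3 clusters, had 6 or more. The median was 0. The clusters with more regions than miR-290 were the single genes Mir1195 (chromosome 17, 70860503 to 70860600) and Mir8110 (chromosome 8, 89024735 to 89024831), with 7 each. Among the 100 clusters of several genes, miR-290 was the one with 6 or more, and Mir182, Mir96 and Mir183 followed with 5.

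**Figure D3:**
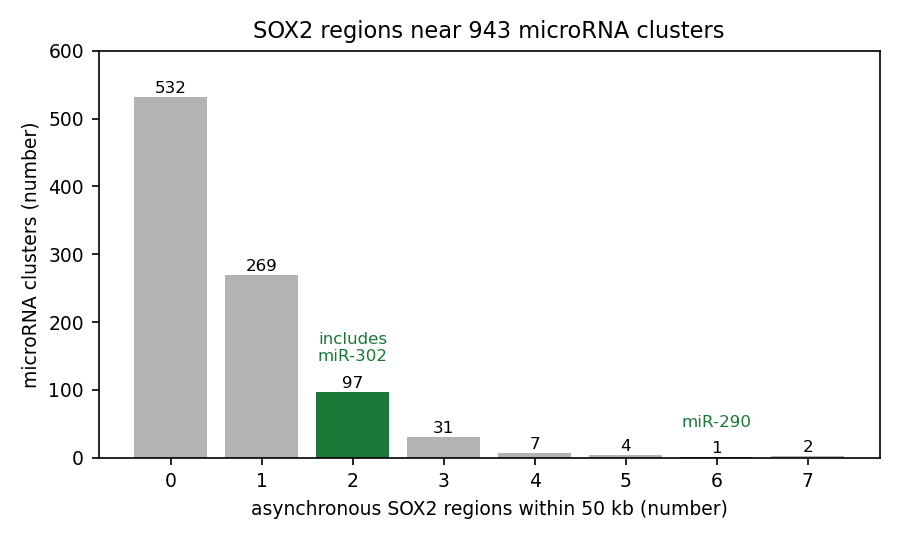
Number of microRNA clusters (y axis) by the number of asynchronous SOX2 regions within 50 kb (x axis), over 943 clusters with single genes included; green bars hold the miR-302 cluster (2 regions) and the miR-290 cluster (6 regions). Most clusters, 532, had no region, and 3 had 6 or more.

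At both clusters a region lay close to the first hairpin, and all regions lay on its upstream side. A region midpoint was as near as at miR-302 for 14 clusters (1.48%) and as near as at miR-290 for 23 (2.44%), while the median distance over all clusters was 65.4 kb. Within 10 kb, 5 clusters had 3 or more regions, miR-290 among them with 3. Of the 142 clusters with 2 or more regions, 68 (47.9%) had all of them on the same side. Among those 68, strand was known for 63, and in 33 of these the side was the upstream one. Of the 7 clusters with 5 or more regions, miR-290 was the 1 with all on the same side. The comparisons of nearest distance and of side were set up after the positions at both clusters had been seen, and carry no test.

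The regions at the clusters were mostly wider than usual for the list. Of the 8 regions, 6 were wider than the list median of 289 bp (interquartile range 226 to 381 bp), with a median of 442 bp at miR-290 (248 to 523 bp) and 448 bp at miR-302 (391 and 505 bp). The list runs from 183 to 2061 bp, and 4 of the 8 regions stood at percentile 90.4 of its widths or higher. Width and position are all that the list gives of a region, and strength of binding was not measured.

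**Figure D4:**
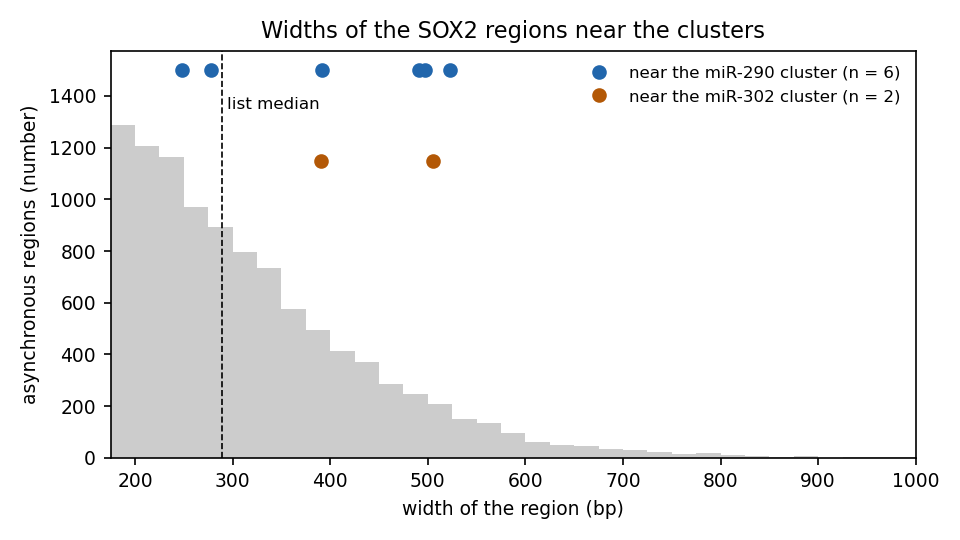
Widths of the asynchronous SOX2 regions in bp (x axis), as a histogram of the list in bins of 25 bp (grey, y axis in regions) with the regions near the miR-290 cluster (blue) and the miR-302 cluster (orange) as points, whose height has no meaning; the 8 widest regions of the list are not drawn. Of the 8 points, 6 lie to the right of the list median of 289 bp (dashed line).

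The seed families reach beyond the 2 loci. The seed of miR-367-3p, AUUGCAC, belongs to the miR-25 and miR-92 family and was carried by 6 genes elsewhere. Of these, Mir92b had 2 asynchronous regions within 50 kb, the nearest 0.317 kb away, and Mir25, Mir32, Mir363 and Mir92-2 had 1 each. Mir92-1 had none. Mir350, whose 5′ arm shares the seed of miR-291b-3p, had 3. The miR-17 family carries AAGUGC within its first bases as well: Mir106a, Mir106b, Mir20b and Mir93 had 1 region each, and Mir17 and Mir20a had none, the nearest being 163 and 162 kb away. Of the other genes with these letters, Mir6380 had 3, and Mir105 and Mir6383 had none. Mir106a, Mir20b, Mir363 and Mir92-2 shared 1 region on chromosome X, and Mir106b, Mir93 and Mir25 shared 1 on chromosome 5. Genes that share a region are not separate observations. None of the genes named here had a mitotic region within 50 kb.

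Other microRNAs known from embryonic stem cells varied widely in the number of regions near them. Of 33 listed genes, 0 had a mitotic and 17 (51.5%, exact 95% interval 33.5 to 69.2%) an asynchronous region within 50 kb, against 42.6% of all microRNA genes. By locus, 6 of 15 had an asynchronous region, against 43.6% of all microRNA clusters. Mir182, Mir96 and Mir183, a cluster also active in sensory cells, shared 5 regions, the nearest 1.51 kb from Mir96. Mir106a and Mir106b of the miR-17 family had 1 region each, 11.1 and 6.30 kb away, and Mir130b had 1 at 20.5 kb. Of 39 microRNA genes of differentiated cells, 0 had a mitotic and 17 (43.6%, 27.8 to 60.4%) an asynchronous region, and by locus 15 of 33 did. Counted by gene the stem cell list had the higher share, and counted by locus the differentiation list did. Mir219a-2 and Mir9-3, of the nervous system, had 3 each. Mir124a-2, Mir124a-3 and Mir128-2, also neural, and Mir134 had 2 each, as did Mir9-2, Mir219a-1, Mir196a-2 and Mirlet7g. Mir9-1, Mir124a-1 and Mir128-1 had none, their nearest being 61.3, 182 and 142 kb away. The nearest midpoint was 0.137 kb from Mir124a-3 and 0.134 kb from Mir128-2.

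Genes that make or restrain microRNAs had 0 to 3 regions each. Of 22 listed genes of the pathway, 0 had a mitotic and 15 (68.2%, exact 95% interval 45.1 to 86.1%) an asynchronous region within 50 kb, with a median of 1 and 5 genes with 2 or more, against 0.836% (mitotic) and 45.5% (asynchronous, median 0) of protein-coding genes. Drosha, which cuts the hairpin from the primary transcript, had 3, the nearest inside the gene at chromosome 15, 12897983 to 12898165. Ago2, the Argonaute that cleaves its targets, and Tnrc6c, its partner in silencing, had 3 each, with the nearest inside the gene. Lin28a, which blocks the processing of let-7, and Trim71, an RNA-binding protein of early embryos, had 2 each. Ago1 had 1, inside the gene and 588 bp wide (chromosome 4, 126465706 to 126466293), and it was also the nearest region of Ago3 and Ago4. This same region was counted for each of these genes, which the interval treats as independent. Dgcr8, the partner of Drosha, had 1 at 5.17 kb and Dicer1, which trims the hairpin, 1 at 12.1 kb. Xpo5, the exporter of hairpins, had none, its nearest being 122 kb away.

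Described targets of the shared seed were often near a region. Of 19 such genes, 1 had a mitotic region within 50 kb and 16 (84.2%, exact 95% interval 60.4 to 96.6%) an asynchronous one, with a median of 1, against 0.836% (mitotic) and 45.5% (asynchronous, median 0) of protein-coding genes. Lefty1 and Lefty2, neighbouring antagonists of Nodal, had 3 each, the nearest 1.16 and 4.28 kb away. The nearest region of each gene lay within 50 kb of the other as well. Such a region was counted for both genes, which the interval treats as independent. Cdk2ap1, a brake on CDK2, was the one with a mitotic region, inside its span, and had 2 asynchronous regions, the nearest at 2.34 kb. Dkk1, a Wnt antagonist, had 2, and Akt1, a kinase of growth signalling, and Ash1l, a histone methyltransferase, had 1 each. Cdkn1a, the p21 inhibitor of the cell cycle, had 1 at 9.94 kb and Lats2, a kinase of the Hippo pathway, 1 inside the gene. Rbl2, a relative of the retinoblastoma protein, had none, with the nearest 158 kb away. The targets come from general knowledge of the family, but the list was drawn up with earlier results of these data known. Its share is therefore a description and carries no test, and repression was not measured.

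**Figure D5:**
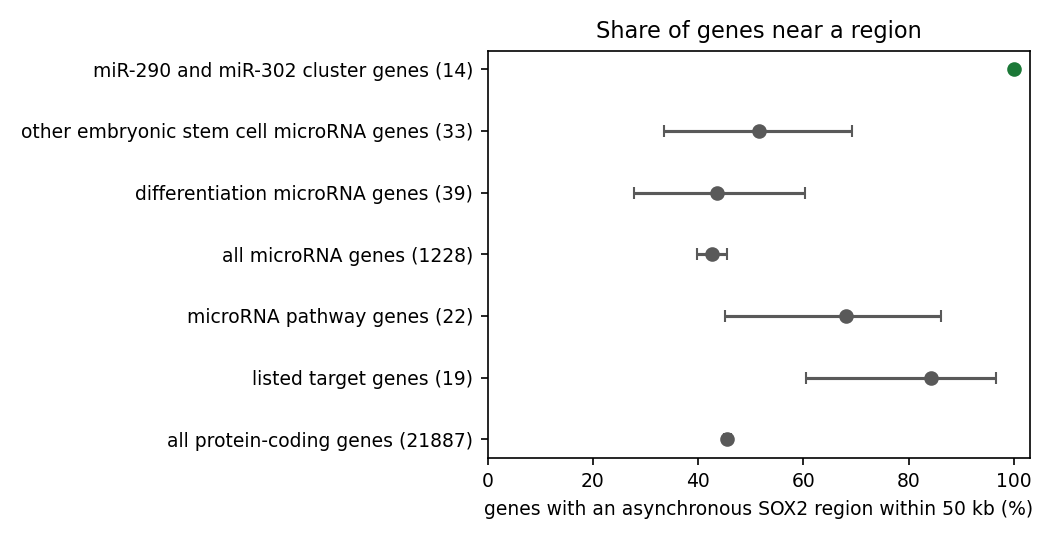
Share of genes with an asynchronous SOX2 region within 50 kb in percent (x axis) for the cluster genes, the listed gene groups and all genes of a kind (rows, number of genes in brackets); bars are exact 95% binomial intervals, left out for the 14 cluster genes, which stand for 2 loci. The cluster genes are at 100% by the way they were chosen, the target list is at 84.2% and all microRNA genes are at 42.6%.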

How the data were processed

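Per the submitters' processing notes, Bowtie2 2.2.1, MACS2 and the build mm10 were used; no MACS2 version is named there. The deposited names describe ChIP compared with input, 3 replicates together per condition, with blacklisted regions removed and a q-value tag of 0.05 (mitotic) or 0.01 (asynchronous). The deposited values are starts and ends in bp with a name; there is no score, and depth is unknown. Starts were converted to count from 1, and 181 of 10532 asynchronous entries that repeated another's coordinates were merged. Distances run from a region's midpoint to a gene span of RefSeq GRCm38.p6 (1228 microRNA and 21887 protein-coding genes on 21 chromosomes). All names of the 4 gene lists were matched. Intervals are exact (Clopper-Pearson, 95%), and a count of 0 is given with the limit of 3 counts. Both cover counting error only and treat genes as independent, which genes of 1 cluster and neighbours that share a region are not. Window counting was tested on simulated regions.

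The members, gene lists and alternatives were chosen with earlier results of these data known. Named genes are the members, the other cluster genes, coding genes within 50 kb or nearest to a region, the microRNA clusters with at least as many regions as miR-290, and up to 6 genes per list with the most regions. Neurog2, Myo10, Dgcr8, Dicer1, Xpo5, Ago3, Ago4, Cdkn1a, Lats2, Rbl2, the genes that share a seed or AAGUGC with the clusters, and the microRNA genes with a mitotic region fall outside that rule and were chosen after seeing their values. The same holds for Mir9-1, Mir9-2, Mir124a-1, Mir128-1, Mir196a-2, Mir219a-1 and Mirlet7g. Python 3.11.15, numpy 2.4.6, scipy 1.17.1 and matplotlib 3.10.9 were used.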

Additional observations from a re-analysis of the deposited data

How the results depend on the processing

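Of 67 recomputed values over 11 results, 41 kept their size, which for counts means within 1.5 times and for shares within the exact interval. The mitotic count stayed at 0 for both clusters under all 7 alternatives. With the nearest mitotic regions 41502.7 and 10653.6 kb away, none of these settings could change it. Those values are among the 41 and say nothing of stability. Within 10 kb, the asynchronous count was 3 at miR-290 and 1 at miR-302; under the other alternatives it was 4 to 6 and 2 to 3. Shares of genes with an asynchronous region move with the window by construction. At 10 kb they were 13.4% of microRNA genes, 23.8% of protein-coding genes, 40.9% of pathway genes, 52.6% of targets, 24.2% of other stem cell microRNAs and 20.5% of differentiation microRNAs. At 25 kb they were 27.2% of microRNA, 33.4% of protein-coding and 23.1% of differentiation microRNA genes, and at 100 kb 65.2%, 62.4% and 66.7%, with 86.4% of pathway genes. With regions wider than the median they were 27.5% of microRNA genes, 26.7% of protein-coding genes and 36.8% of targets. Counting the nearest gene alone gave 32.9% of microRNA genes, 23.5% of protein-coding genes, 40.9% of pathway genes, 57.9% of targets and 24.2% of other stem cell microRNAs. Chains of 6 or more regions numbered 0, 5 and 8 with links of 5, 15 and 20 kb, against 1 with 10 kb, settings chosen after seeing the data. No paired analysis was possible because each condition has 1 list for its replicates together, and for the same reason no replicate could be left out. Depth is unknown, so absence of a region is not absence of binding.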

Other observations

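Of the 6 microRNA clusters with a mitotic region within 50 kb, 5 also had an asynchronous region within 50 kb. Over all 943 clusters the share with an asynchronous region was 43.6%. A count over 6 loci is a description, and whether the mitotic and asynchronous regions are the same sites was not tested. The 5 clusters were Mir7003 with 3 asynchronous regions, Mir8110 with 7, Gm51267 with 1, Mir8097 with 1 and Mir692-1 with 2. Mir6417 had none, and its mitotic region was the nearest of the 6, with its midpoint 0.741 kb from the gene. The mitotic midpoints were 11.4 kb from Mir7003, 12.5 kb from Mir8110, 49.6 kb from Gm51267, 16.6 kb from Mir8097 and 5.57 kb from Mir692-1. An asynchronous region overlapped a hairpin in 6 of the 943 microRNA clusters.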
